A study of Mus musculus with 16 samples.

Results

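The collagen genes are the genes that encode the alpha chains of the collagens, and here they are every gene whose symbol reads Col, a number, the letter a and a number, with nothing further. By that rule 44 of the 18635 genes listed in any of the 4 deposited tables were collagen genes. All 44 were listed in the KPC wild-type and the KPC knockout tables, 29 in the ID8 wild-type table and 32 in the ID8 knockout table. In 8 classes they covered 11 fibrillar chains, 6 chains of basement membrane type IV, 6 of type VI, 9 fibril-associated chains, 4 transmembrane chains, 3 short-chain network chains, 3 anchoring and other chains, and the 2 multiplexins.

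The study profiled RNA of 16 mouse samples, labelled as tumours, from lines that were wild type or knocked out for Trp53bp1, the gene of the DNA repair protein 53BP1. ID8 cells derive from mouse ovarian surface epithelium, with 3 wild-type and 3 Trp53bp1 KO samples. KPC is a mouse pancreatic cancer line, with 5 wild-type and 5 Trp53bp1 KO samples. Each line had been implanted into immunocompetent mice of its own strain, and each genotype of a line is labelled as a single line, so effects of the knockout and of the particular clone or subline cannot be told apart. The labels call the replicates biological without naming animals, and p-values measure only the spread between these samples. The labels also describe extraction of total RNA from cells, so whether whole tumour tissue was used in both models is not settled by them.

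Collagens are the main fibrous proteins of the extracellular matrix, built as triple helices of chains of the same or of different genes. Fibrillar types I, III and V form the fibres of connective tissue, and in solid tumours they are made chiefly by fibroblasts. Type IV forms the network of basement membranes under epithelium and endothelium, and type VI forms beaded filaments between cells and the fibrous matrix. Prolyl and lysyl hydroxylases modify the chains, the chaperone Serpinh1 attends their folding, and lysyl oxidases crosslink the secreted molecules.

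Promoter windows are shown for 6 members on which the comparison between the lines turned. They are the Col4a1 and Col4a2 pair, which was high in both lines, and the Col4a5 and Col4a6 pair, which was much higher in ID8 than in KPC. The others are the fibrillar chains Col3a1 and Col1a2, which were high in KPC. Each window runs 5′ to 3′ on the gene's own strand, from 250 bases before the start site to 50 bases after it, in the RefSeq table of assembly GRCm38.p6. That is not the build on which the reads were counted. Capitals mark matches to CCAAT or ATTGG, to GGGCGG or CCGCCC, and to TATAAA or TTTATA, that is, each of 3 motifs on both strands. Col4a1 is at chr8:11312777-11313076 on the minus strand and Col4a2 at chr8:11312555-11312854 on the plus strand. Col4a5 is at chrX:141475169-141475468 on the plus strand and Col4a6 at chrX:141474027-141474326 on the minus strand. Col3a1 is at chr1:45311288-45311587 and Col1a2 at chr6:4505368-4505667, both on the plus strand.
Col4a1: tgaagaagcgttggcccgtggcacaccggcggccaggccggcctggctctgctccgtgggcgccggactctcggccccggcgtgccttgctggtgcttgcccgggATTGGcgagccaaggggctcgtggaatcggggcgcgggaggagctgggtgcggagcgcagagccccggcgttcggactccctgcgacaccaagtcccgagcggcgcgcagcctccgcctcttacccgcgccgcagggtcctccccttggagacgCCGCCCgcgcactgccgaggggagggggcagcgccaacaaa
Col4a2: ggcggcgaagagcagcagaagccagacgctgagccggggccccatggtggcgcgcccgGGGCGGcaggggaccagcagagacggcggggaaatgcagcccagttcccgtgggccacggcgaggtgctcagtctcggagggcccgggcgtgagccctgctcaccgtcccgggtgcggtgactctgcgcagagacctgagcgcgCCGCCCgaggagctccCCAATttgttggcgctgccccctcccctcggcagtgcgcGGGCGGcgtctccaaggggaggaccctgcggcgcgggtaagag
Col4a5: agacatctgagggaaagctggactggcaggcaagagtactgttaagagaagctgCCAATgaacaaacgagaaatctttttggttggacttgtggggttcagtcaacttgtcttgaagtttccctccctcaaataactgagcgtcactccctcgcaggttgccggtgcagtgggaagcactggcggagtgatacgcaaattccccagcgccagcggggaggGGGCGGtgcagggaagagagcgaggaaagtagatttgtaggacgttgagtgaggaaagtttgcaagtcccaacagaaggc
Col4a6: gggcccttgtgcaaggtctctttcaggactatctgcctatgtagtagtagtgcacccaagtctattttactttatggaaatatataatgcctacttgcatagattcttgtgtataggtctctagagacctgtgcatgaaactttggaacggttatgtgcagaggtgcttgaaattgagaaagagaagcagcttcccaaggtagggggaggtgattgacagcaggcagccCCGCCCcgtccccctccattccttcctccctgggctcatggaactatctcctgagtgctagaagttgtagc
Col3a1: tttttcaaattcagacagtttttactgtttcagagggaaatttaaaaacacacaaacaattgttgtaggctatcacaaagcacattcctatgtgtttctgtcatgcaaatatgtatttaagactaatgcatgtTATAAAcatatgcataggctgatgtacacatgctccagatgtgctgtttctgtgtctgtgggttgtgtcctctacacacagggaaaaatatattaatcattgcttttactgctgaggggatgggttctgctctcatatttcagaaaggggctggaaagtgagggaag
Col1a2: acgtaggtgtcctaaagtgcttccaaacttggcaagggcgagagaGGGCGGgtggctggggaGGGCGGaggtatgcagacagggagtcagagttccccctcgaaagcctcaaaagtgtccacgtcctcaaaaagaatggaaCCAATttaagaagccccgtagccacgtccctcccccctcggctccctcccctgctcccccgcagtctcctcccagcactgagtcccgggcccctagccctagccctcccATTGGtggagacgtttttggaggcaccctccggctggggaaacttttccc

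The start sites of Col4a1 and Col4a2 lay 21 bases apart on opposite strands, so that their windows shared 78 bases. Those of Col4a5 and Col4a6 lay 1343 bases apart, also on opposite strands, and their windows did not overlap. Col4a1 held 1 CCAAT motif and 1 GGGCGG motif, Col4a2 held 1 and 3, Col4a5 held 1 and 1, and Col4a6 held 1 GGGCGG motif alone. Col1a2 held 2 CCAAT and 2 GGGCGG motifs, and Col3a1 held 1 TATAAA motif and neither of the others. Among all 32851 windows of the table, 37.4% held CCAAT, 35.7% held GGGCGG and 13.6% held TATAAA. For the collagens, 35 of the 44 genes had a window, 38 windows in all, of which 13 held CCAAT, 23 held GGGCGG and 5 held TATAAA.

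Library totals ran from 17902867 to 19727536 counts, with 7.92% to 8.96% of a table's values not whole. Trp53bp1 itself was at 47.4 ± 2.78 CPM (counts scaled to library size and by TMM, edgeR's trimmed mean of M-values; SD, n = 3) in ID8 wild type and 18.9 ± 0.501 in ID8 knockout, and at 50.2 ± 2.92 (n = 5) in KPC wild type and 33.8 ± 3.79 in KPC knockout. The tumour label was checked against markers of host cells. The 6 leukocyte markers summed to 11 to 12.8 CPM in ID8 wild type and 3.67 to 5.48 CPM in ID8 knockout, nearly all of it Cd68, while Ptprc, Adgre1, Cd3e and Itgam were at 0 counts in every ID8 library. The 6 endothelial markers summed to 2.33 to 2.75 CPM and 1.79 to 2.1 CPM, mostly Pecam1, with Cdh5 and Kdr at 0 counts in every ID8 library. Of the 10 fibroblast markers, Fap and Cthrc1 were at 0 counts in every ID8 library, but Pdpn was at 254 CPM in ID8 wild type against 33.9 CPM in KPC wild type, Pdgfra at 40.2 CPM and Thy1 at 7.62 CPM. In KPC wild type the 6 leukocyte markers summed to 1026 to 2346 CPM and the 6 endothelial markers to 271 to 425 CPM. Skeletal muscle markers summed to 442 to 26410 CPM in KPC wild type and to 16.5 to 5328 CPM in KPC knockout, and 4 KPC libraries had Acta1, the skeletal muscle actin, above 1000 CPM. These were wild-type replicates 2 and 4 and knockout replicates 2 and 5. In such bulk samples, fewer cells of a type and less RNA per cell cannot be told apart.

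Collagen transcripts took 2.46 ± 0.461% of all counts in KPC wild type and 2.73 ± 0.355% in KPC knockout (SD, n = 5), against 0.273 ± 0.024% in ID8 wild type and 0.214 ± 0.0156% in ID8 knockout (SD, n = 3). The composition differed as well. Per kilobase of transcript, the scale on which genes can be set side by side, the fibrillar chains made up 75.5% of the collagen signal in KPC wild type and 19.3% in ID8 wild type. Type IV chains made up 4.79% and 43.6% respectively, and type VI chains 11.3% and 35.1%. The other 5 classes together were a small remainder in both lines, the largest being the multiplexins at 4.18% in KPC wild type.

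The ranking of single members per kilobase differed between the lines. In KPC wild type the leading genes were Col3a1 at 1056 ± 244 CPM per kilobase, Col1a2 at 990 ± 197 and Col1a1 at 827 ± 166 (SD, n = 5), whose ranges overlapped among themselves. Within each KPC wild-type library, however, Col1a2 was above Col1a1, with a ratio of Col1a1 to Col1a2 per kilobase of 0.812 to 0.852. Col6a1 at 238.5 ± 34 and Col6a2 at 161 ± 21.4 came next. In ID8 wild type the leading gene was Col6a1 at 134 ± 5.68 CPM per kilobase, followed by Col4a1 at 84.2 ± 7.66, Col4a5 at 63.8 ± 6.73 and Col3a1 at 61.9 ± 6.84 (SD, n = 3). Col4a5 and Col3a1 did not differ beyond their spread, nor did Col4a2 at 48.9 ± 5.44 and Col6a2 at 47.2 ± 1.22, which followed them. Col1a1 at 30.3 ± 4.49 and Col4a6 at 28.2 ± 3.13 were next and also within each other's spread, although Col1a1 was above Col4a6 in each library.

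**Figure D1:**
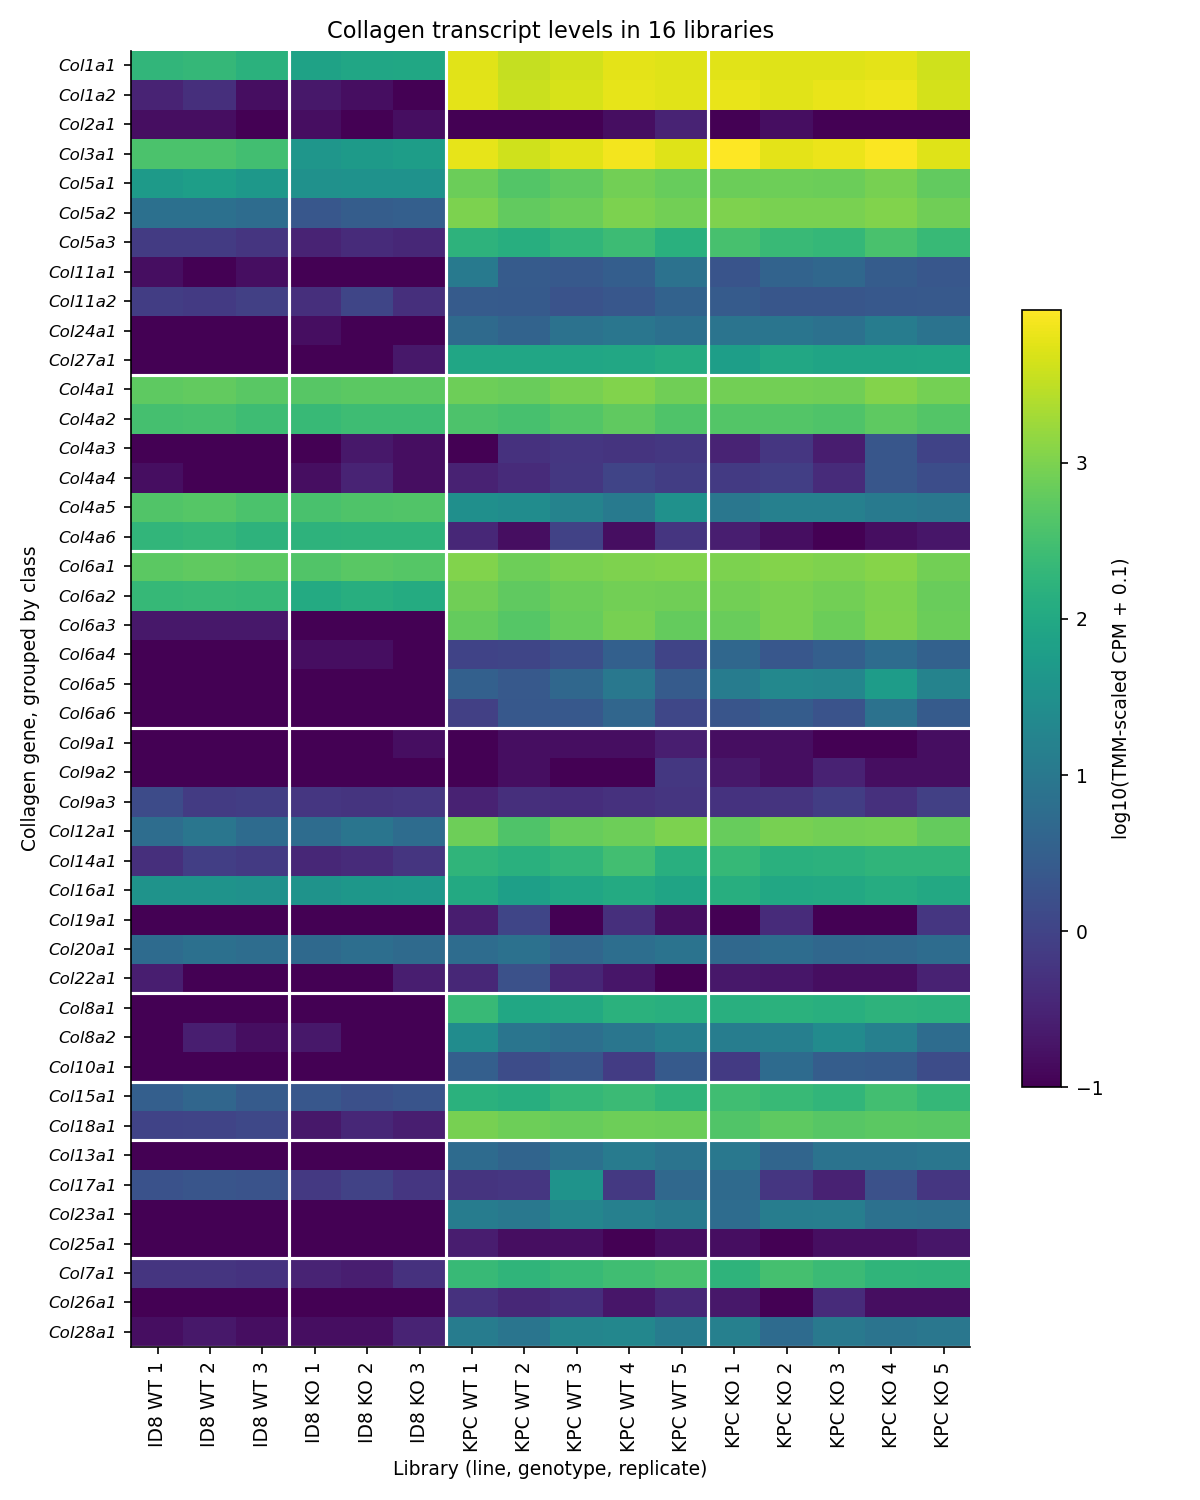
TMM-scaled CPM of the 44 collagen genes (rows, grouped by class) in the 16 libraries (columns), as log10(CPM + 0.1) in colour. The KPC columns are bright for the abundant fibrillar chains, while Col4a5 and Col4a6 are brighter in the ID8 columns than in the KPC columns.

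The comparison of wild-type KPC with wild-type ID8 asks how the collagen genes of the 2 models differ before any knockout. Most were higher in KPC: of 36 members tested, 31 were higher and 3 lower in KPC at an adjusted p under 0.05 (edgeR's quasi-likelihood test with Benjamini-Hochberg adjustment over all genes tested). Of all 14507 genes tested, 79.1% were called, 44.3% higher and 34.8% lower. The median log2 difference was 6.94 over the members and 0.13 over all genes. Members at 0 counts in every ID8 wild-type library, such as Col8a1 and Col27a1, entered the test through their KPC counts. They could only be higher in KPC. Members with few ID8 wild-type counts, such as Col1a2 on 12, Col6a3 on 6 and Col7a1 on 26, also entered through KPC. Those could hardly be called lower. Both kinds are part of the 31 and of the median, and only 18 members had enough counts to be tested within ID8. The libraries of the 2 groups did not overlap for 30 members higher in KPC and 3 lower, against 77.8% of all genes, 44.6% higher and 33.2% lower. The members lower in KPC were Col4a5, Col4a6 and Col9a3. The 2 groups are different lines from different organs as well as different samples, and the markers above differ with them; the part that host cells or line play in any difference was not tested.

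Col1a1 (gene ID 12842) and Col1a2 (gene ID 12843) encode the chains that together make the type I molecule. Col1a1 was at 5584, 3520, 4259, 5854 and 5314 CPM in the 5 KPC wild-type libraries and at 185, 203 and 151 CPM in the 3 ID8 wild-type libraries. Col1a2 was at 5986, 3726, 4727, 6267 and 5776 CPM in KPC and at 0.215, 0.378 and 0.0541 CPM in ID8. The KPC libraries were thus above the ID8 libraries for both chains, without overlap, but only Col1a1 was well above the floor in ID8. There Col1a2 stood on 12 counts over the 3 libraries, beside 9973 counts of Col1a1. The fold between the lines was 27.3 for Col1a1 (log2 difference 4.74 ± 0.22 SE) and 24520 for Col1a2, with a counting interval at 95% confidence of 14040 to 47460 that covers counting error only.

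Col3a1 (gene ID 12825), the type III chain, was at 6191, 4190, 5700, 7908 and 5377 CPM in KPC wild type and at 366, 366 and 300 CPM in ID8 wild type. The lowest KPC library was far above the highest ID8 library, and the ratio of means was 17.1. The type V chains, which regulate the width of type I fibrils, were unequal in ID8. Col5a1 was at 719, 442, 572, 826 and 677 CPM in KPC and at 50.6, 61.2 and 45.3 CPM in ID8. Col5a2 was at 980, 603, 722, 984 and 812 CPM in KPC and at 6.73, 6.75 and 5.63 CPM in ID8. Neither gene overlapped between the lines, with ratios of means of 12.4 for Col5a1 and 129 for Col5a2. Col5a3, the third type V chain, was at 178 ± 47.6 CPM in KPC wild type (SD, n = 5) and 0.594 ± 0.0924 in ID8 wild type (n = 3). Col27a1, a fibrillar chain known from cartilage, was at 95.4 ± 10.9 CPM in KPC and at 0 counts in every ID8 wild-type library, which makes it at least 589-fold higher in KPC against a floor of 3 counts per library. All 10 fibrillar chains tested were higher in KPC. Only 5 of them had enough counts to be tested within ID8, and the others entered this test through their KPC counts. Of those, Col24a1 and Col27a1 were at 0 counts in ID8 wild type and could only be higher.

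Among type IV chains the direction depended on the chain. Col4a1 and Col4a2, the ubiquitous pair, were high in both lines. Col4a1 was at 775, 679, 914, 1065 and 807 CPM in KPC wild type and at 547, 612 and 512 CPM in ID8 wild type. Col4a2 was at 379, 335, 451, 570 and 396 CPM in KPC and at 327, 344 and 276 CPM in ID8. For Col4a1 the groups did not overlap and the ratio of means was 1.52 (adjusted p = 0.00388, edgeR). For Col4a2 they overlapped, the ratio was 1.35, and the call at adjusted p = 0.0466 (edgeR) was lost under 7 of 18 alternatives, with adjusted p up to 0.172.

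The other type IV pair ran the opposite way. Col4a5, the chain affected in most Alport syndrome, was at 427, 455 and 369 CPM in ID8 wild type and at 30.2, 26.1, 16.8, 10.9 and 32.9 CPM in KPC wild type. Col4a6, its neighbour and partner in some epithelial and smooth muscle basement membranes, was at 189, 208 and 166 CPM in ID8 and at 0.253, 0.0524, 0.851, 0.0519 and 0.475 CPM in KPC. Every ID8 library was above every KPC library for both genes. The ratio of ID8 to KPC means was 17.9 for Col4a5 and 558 for Col4a6, whose KPC value stood on 33 counts over 5 libraries (counting interval 393 to 802.6). Col4a3 and Col4a4, the remaining type IV chains, averaged under 1 CPM in both wild-type groups.

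Type VI showed a further unequal trio in ID8. Col6a1 was at 1072, 747, 946, 1054 and 1071 CPM in KPC wild type and at 537, 577 and 537 CPM in ID8 wild type. Col6a2 was at 801, 583, 735, 830 and 800 CPM in KPC and at 216, 226 and 217 CPM in ID8. Col6a3, the chain that completes the usual type VI molecule, was at 642, 462, 657, 900 and 629 CPM in KPC and at 0.108, 0.108 and 0.108 CPM in ID8, where it had 2 counts in each library. The KPC libraries were above the ID8 libraries for each of the 3 chains, by ratios of 1.78 and 3.41 for Col6a1 and Col6a2. For Col6a3 the fold was 6096, with a counting interval of 2800 to 16610. Col6a4, Col6a5 and Col6a6, neighbouring genes whose chains resemble that of Col6a3, were at 0 counts in every ID8 wild-type library and averaged 1.51, 4.48 and 2.12 CPM in KPC wild type.

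**Figure D2:**
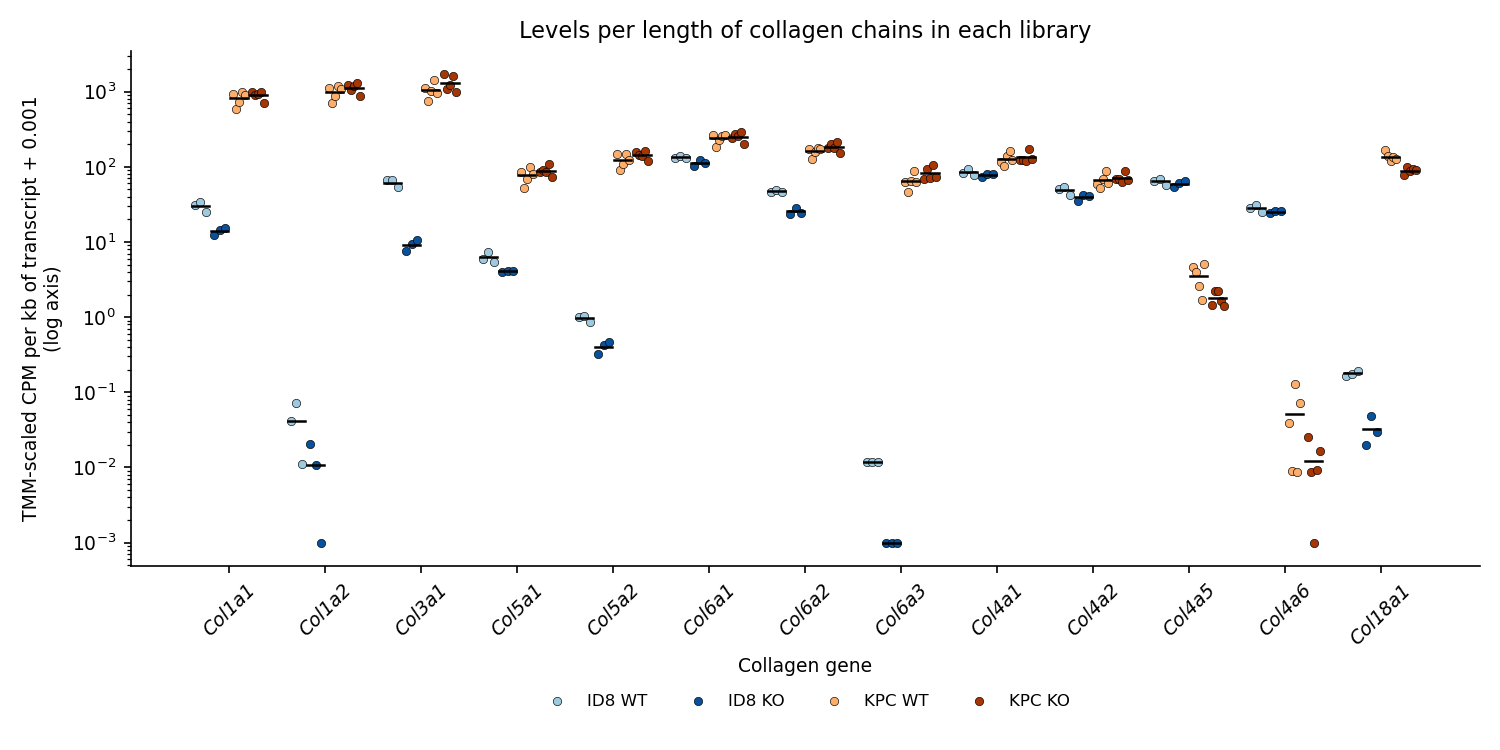
CPM per kilobase of transcript (plus 0.001, log axis) of 13 collagen chains in each library, with the group mean as a line. Col1a2 and Col6a3 drop to the floor in ID8 while Col1a1, Col6a1 and Col6a2 do not, and Col4a5 and Col4a6 are higher in ID8 than in KPC.

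Outside these classes, Col18a1 (gene ID 12822), the multiplexin whose C-terminal fragment is endostatin, stood at 924, 773, 677, 750 and 713 CPM in KPC wild type and at 0.916, 0.972 and 1.08 CPM in ID8 wild type. The groups lay 775-fold apart. Col15a1, the other multiplexin, was at 184 ± 47.9 CPM in KPC (SD, n = 5) and 3.33 ± 0.942 in ID8 (n = 3), a ratio of 55.1. The fibril-associated chains Col12a1 and Col14a1 were 106-fold and 326-fold higher in KPC, while Col16a1, of the same class, was 2.55-fold higher and Col20a1 was not called (log2 difference 0.03 ± 0.21 SE). Col7a1, the anchoring fibril chain of skin and mucosa, was at 250 ± 62 CPM in KPC and stood on 26 counts over the 3 ID8 wild-type libraries. Col8a1, a short-chain network collagen of vessels and cornea, was at 143 ± 52.2 CPM in KPC and at 0 counts in ID8, at least 885-fold higher. Col8a2, Col23a1 and Col28a1 averaged 12.9, 13.3 and 14.2 CPM in KPC wild type and at most 0.072 CPM in ID8 wild type. Col17a1, the hemidesmosome collagen of basal epithelium, was not called, with 0.455, 0.524, 36.7, 0.571 and 4.75 CPM in KPC and 1.72, 1.94 and 1.79 CPM in ID8, so that KPC libraries lay on both sides of ID8.

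The same lines were compared again in the knockout libraries, none of which the wild-type comparison used. Of 37 members tested, 32 were higher in KPC knockout than in ID8 knockout and 2 were lower, where 79% of all genes were called, 44.8% higher and 34.2% lower. The groups did not overlap for 32 members higher and 2 lower, against 77.6% of all genes, 44.5% higher and 33.1% lower. Fibrillar chains were again higher throughout, 10 of 10 tested, by 64-fold for Col1a1 and 144-fold for Col3a1. Members at or near 0 counts in ID8 knockout, fibrillar chains among them, again entered through their KPC counts and could hardly be called lower. Col4a5 and Col4a6 were the 2 members lower in KPC, by log2 differences of -5.08 ± 0.17 SE and -11.05 ± 0.22 SE. Col6a3 was at 0 counts in every ID8 knockout library and at least 5272-fold higher in KPC knockout. The knockouts are labelled as knockouts of the same 2 lines, so this is the line difference measured in other samples and not an independent pair of models.

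Within ID8, the question was which collagen genes differ between Trp53bp1 knockout and wild type. Of 18 members tested, 10 were lower and 1 higher in the knockout (edgeR, adjusted p under 0.05), while 50.8% of all 11933 genes tested were called, 25.5% lower and 25.4% higher. The median log2 change was -0.45 over the members and 0.01 over all genes, and 17 of 18 members had a negative sign. Lower calls fell on 4 of 5 fibrillar chains tested, 2 of 2 type VI chains, 2 of 2 multiplexins, 1 of 4 type IV chains and Col17a1. The 3 libraries of a genotype lay close together, with a common coefficient of biological variation of 5.08%, so that small changes passed the test; 5 of the members fell at least 2-fold, against 4.11% of all genes (6.26% in either direction). For 11 members the knockout libraries lay wholly below the wild-type libraries and for 1 wholly above, where 57.9% of all genes were apart, 29.3% below and 28.7% above.

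Col3a1 was at 41.9, 51.8 and 59.2 CPM in the ID8 knockout libraries, all far below the 300 to 366 CPM of wild type. Its log2 change was -2.75 ± 0.16 SE (adjusted p = 5.51e-05, edgeR), the lowest of the 18 members. Col1a1 was at 73, 86.4 and 92.3 CPM in the knockout, below every wild-type library, with a log2 change of -1.09 ± 0.15 SE. Col1a2, its partner chain, stood on 3 counts in the knockout after 12 in wild type and was not tested. Col5a2 was at 2.15, 2.79 and 3.06 CPM (log2 change -1.25 ± 0.15 SE) and Col5a1 at 33.4, 34.7 and 34.5 CPM (-0.61 ± 0.10 SE). The groups were apart for both type V chains. Col11a2, the remaining fibrillar chain tested, had a log2 change of -0.24 ± 0.39 SE and was not called.

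Col6a2 (gene ID 12834) was at 111, 131 and 114 CPM in ID8 knockout, against 216 to 226 CPM in wild type. It had the smallest adjusted p of the members, 3.5e-09 (edgeR), at a log2 change of -0.88 ± 0.06 SE. Col6a1 was at 421, 503 and 463 CPM, below all wild-type libraries, and fell by less, with a log2 change of -0.25 ± 0.06 SE; its call was lost in the fit of all 4 groups together (adjusted p = 0.248, edgeR). Col6a3 went from 2 counts in each wild-type library to 0 counts in each knockout library, a level at which no change can be read.

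Of the multiplexins, Col18a1 was at 0.105, 0.263 and 0.158 CPM in ID8 knockout, below the 0.916 to 1.08 CPM of wild type. Its log2 change of -2.45 ± 0.40 SE rested on 10 counts in the knockout and 55 in wild type. Col18a1 entered the test through its wild-type counts and could hardly be called higher. It is among the lower calls, the falls of at least 2-fold and the multiplexins counted above. Col15a1 had a log2 change of -0.85 ± 0.22 SE, and its call was lost in the fit of all 4 groups (adjusted p = 0.0802, edgeR). Col17a1 was at 0.577, 0.841 and 0.527 CPM, below wild type, with a log2 change of -1.47 ± 0.25 SE on 37 and 101 counts; in the fit of all 4 groups it was not called (adjusted p = 0.617, edgeR).

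Of the 4 type IV chains tested, 1 was called. Col4a1 was at 486, 525 and 531 CPM in ID8 knockout, overlapping wild type, and was not called (log2 change -0.11 ± 0.06 SE). Col4a2 was at 225, 275 and 267 CPM, just below wild type, with a log2 change of -0.30 ± 0.10 SE and adjusted p = 0.0425 (edgeR). That call was lost under 8 of 15 alternatives, with adjusted p from 0.0591 to 0.252; among these were the fits without wild-type replicate 1 or 2 and without knockout replicate 1 or 3. Col4a5 at 391 ± 32.5 CPM and Col4a6 at 169 ± 6.07 CPM (SD, n = 3) were not called, although without wild-type replicate 3 both, and Col4a1, passed at adjusted p of 0.0438, 0.0039 and 0.0297 (edgeR). Col16a1 was the member that rose, from 35.1 ± 2.24 to 41.8 ± 4.62 CPM (log2 change 0.26 ± 0.08 SE), and its call was lost without wild-type replicate 3 or knockout replicate 3 (adjusted p = 0.0583 and 0.0753, edgeR) and in the fit of all 4 groups (adjusted p = 0.361). Col12a1, Col9a3 and Col20a1 were not called.

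The ID8 changes stood beside shifts in the marker lists. The summed fibroblast markers were 297 to 308 CPM in ID8 wild type and 371 to 400 CPM in ID8 knockout, with 1 of the 3 tested members, Pdpn, higher (254 and 337 CPM), Fap and Cthrc1 at 0 in both, and Mfap5 and Pi16 also at 0 in the knockout. The pericyte and vascular smooth muscle markers summed to 47 to 53.5 CPM and 28.1 to 32.2 CPM, with 3 of 3 tested lower. The mesothelial markers summed to 3270 to 3610 CPM and 4665 to 4995 CPM, with 2 of 5 tested higher and 2 lower. The epithelial markers summed to 3698 to 4024 CPM in wild type and 2854 to 2943 CPM in knockout, with 4 of 5 tested members lower. Their part in the collagen changes was not tested. Of the leukocyte markers 1 was tested, Cd68, which was lower in the knockout (11.8 and 4.29 CPM). Of the endothelial markers 2 were tested: Pecam1 was lower (2.48 and 1.09 CPM) and Tek higher (0.036 and 0.753 CPM, on 2 and 43 counts). Tek entered the test through its knockout counts and could hardly be called lower. The other leukocyte and endothelial markers had at most 5 counts in an ID8 group.

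Within KPC, few collagen genes differed between the genotypes. Of 34 members tested, 2 were lower and 2 higher in the knockout (edgeR, adjusted p under 0.05), and 6 had an unadjusted p under 0.05. Of all 14283 genes tested, 13.7% were called, 7.01% lower and 6.67% higher, so that the members' count was near the background. At least 2-fold apart and called were 2 members higher and 1 lower, where 3.85% of all genes were so called, 2.56% higher and 1.3% lower. The genotypes did not overlap for 1 member higher and 1 lower, against 11.8% of all genes. The fibrillar chains that dominate the KPC signal were not called: 0 of 10 tested by edgeR, with a median log2 change of 0.19, while 2 had an unadjusted p under 0.05 and DESeq2 and limma-voom each called 1, Col5a3. The libraries of one genotype varied far more than in ID8, with a common coefficient of biological variation of 25.1%.

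Col18a1 had the smallest adjusted p of the 4. Col18a1 was at 433, 553, 488, 519 and 504 CPM in KPC knockout, all below the 677 to 924 CPM of wild type. The log2 change was -0.64 ± 0.10 SE (adjusted p = 0.00401, edgeR), and 6.04% of all genes had knockout libraries wholly below wild type. Without the 4 libraries rich in Acta1 the change was -0.69 (adjusted p = 0.0246, edgeR). Col18a1 was thus the only member called lower in both ID8 and KPC. In ID8 it stood near the floor, on 55 counts in wild type and 10 in knockout, and could hardly be called higher.

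Col6a5 (gene ID 665033), a type VI chain, was at 12.3, 21.4, 19.6, 56.3 and 16.4 CPM in KPC knockout and at 3.29, 2.41, 4.55, 9.6 and 2.54 CPM in KPC wild type. Every knockout library was above every wild-type library, as for 5.76% of all genes, and the log2 change was 2.48 ± 0.51 SE (adjusted p = 0.0155, edgeR). Without the Acta1-rich libraries it was 3.07 (adjusted p = 0.0257, edgeR). Its estimate depends on how reads were divided with its neighbour Col6a6: in 5 libraries both values were fractional and their sum was whole, as with 46.35 and 42.65 summing to 89 in wild-type replicate 2. Col6a6 itself had a log2 change of 0.60 ± 0.52 SE and was not called.

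Col6a4, the third of the neighbouring type VI genes, was at 4.42, 2.18, 3.07, 5.62 and 3.49 CPM in KPC knockout and at 0.911, 0.995, 1.45, 3.22 and 0.951 CPM in wild type. Wild-type replicate 4 lay above 2 knockout libraries, and the log2 change was 1.30 ± 0.39 SE (adjusted p = 0.0475, edgeR). Col4a5 was at 9.43, 14.5, 14.5, 10.8 and 9.15 CPM in knockout, against 10.9 to 32.9 CPM in wild type, where replicate 4 lay within the knockout range. Its log2 change was -1.02 ± 0.29 SE (adjusted p = 0.0444, edgeR). The Col6a4 call was lost under 10 of 20 alternatives (adjusted p up to 0.107), among them leaving out any 1 of wild-type replicates 1, 2, 3 and 5 or knockout replicates 1, 3, 4 and 5. The Col4a5 call was lost under 11 of 20 (adjusted p up to 0.102), including leaving out any 1 library except wild-type replicate 4. Without the Acta1-rich libraries the changes were 1.97 for Col6a4 (adjusted p = 0.0172) and -1.20 for Col4a5 (adjusted p = 0.0336, edgeR).

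**Figure D3:**
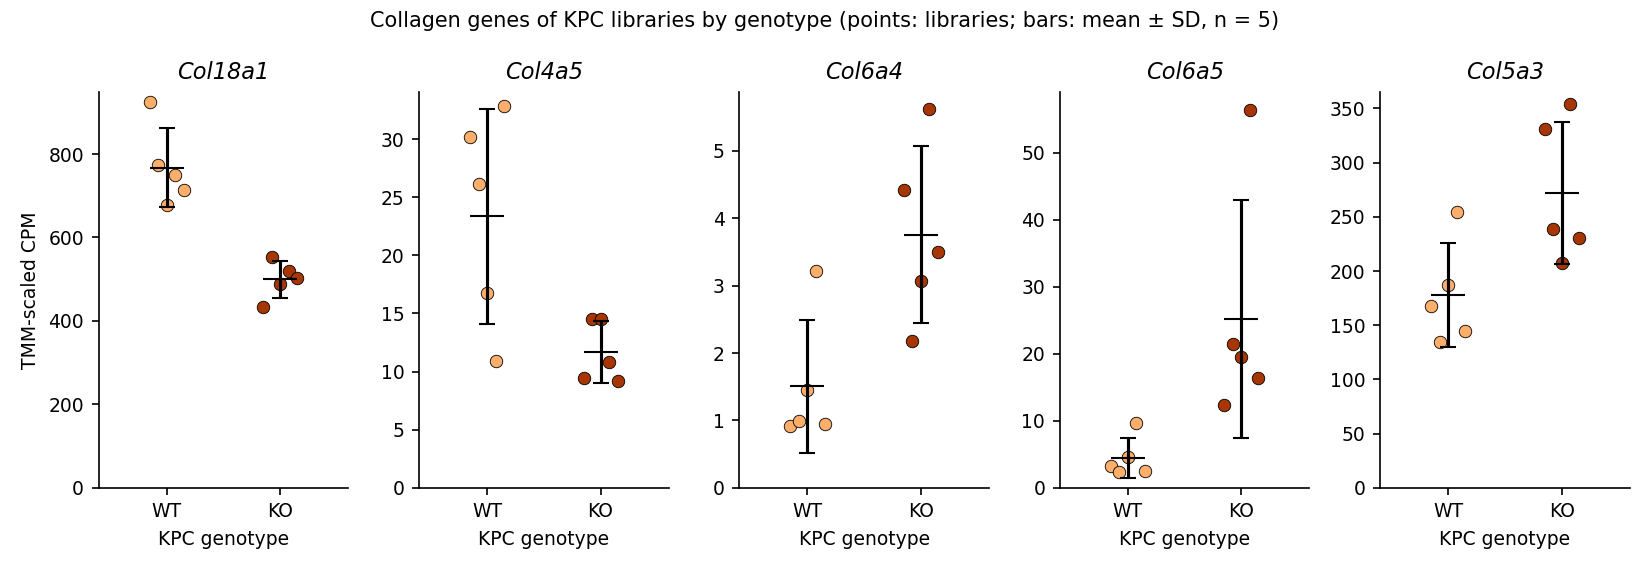
TMM-scaled CPM of Col18a1, Col4a5, Col6a4, Col6a5 and Col5a3 in the 5 wild-type and 5 knockout KPC libraries (points), with mean ± SD. The genotypes do not overlap for Col18a1 and Col6a5 and overlap for the other 3.

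The abundant fibrillar chains overlapped between the KPC genotypes. Col1a1 was at 5806, 5420, 5511, 5959 and 4155 CPM in knockout (log2 change 0.11 ± 0.14 SE) and Col1a2 at 6606, 5706, 6363, 7015 and 4616 CPM (0.18 ± 0.15 SE). Col3a1 was at 9509, 5966, 6841, 8947 and 5525 CPM, with a log2 change of 0.31 ± 0.18 SE. The highest Col3a1 values were in knockout libraries, but 3 of the 5 lay within the wild-type range. Col5a1 was at 728, 762, 727, 922 and 611 CPM (0.20 ± 0.15 SE) and Col5a2 at 1036, 964, 928, 1061 and 790 CPM (0.20 ± 0.13 SE). Col5a3 was at 168, 135, 187, 255 and 144 CPM in wild type and at 331, 239, 207, 354 and 230 CPM in knockout, and only 2 knockout libraries lay above the wild-type range. It had a log2 change of 0.60 ± 0.19 SE and adjusted p = 0.0631 (edgeR), and passed under 6 of 20 alternatives, one of which left out wild-type replicate 4 (adjusted p = 0.0151). Without the 4 Acta1-rich libraries both Col5a3 (log2 change 0.83, adjusted p = 0.0407) and Col3a1 (0.54, adjusted p = 0.0492) were called higher by edgeR.

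Of the other chains in KPC knockout, Col4a1 was at 823, 821, 779, 1127 and 852 CPM and Col4a2 at 448, 446, 404, 566 and 434 CPM, both overlapping wild type and not called. Col6a1 was at 1003, 1128, 1052, 1181 and 814 CPM and Col6a2 at 832, 929, 816, 981 and 705 CPM, again without a call. Col6a3 had a log2 change of 0.32 ± 0.17 SE. Col17a1 was at 5.07, 0.519, 0.205, 1.6 and 0.514 CPM in knockout, and its log2 change of -2.48 ± 1.39 SE was not called. Col7a1, Col8a1, Col8a2, Col12a1, Col14a1, Col15a1, Col16a1, Col23a1, Col27a1 and Col28a1 were not called, with log2 changes from -0.58 for Col28a1 to 0.38 for Col15a1. The 17 collagen genes under 10 CPM in every group and without a call averaged at most 8.72 CPM in any group, the value of Col24a1 in KPC knockout.

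The KPC libraries differed in collagen level within a genotype. Wild-type replicate 2 had the lowest value for 18 of the 23 members that averaged at least 10 CPM, and its Acta1 level was 7290 CPM. Knockout replicate 5 had the lowest value for 11 of 22 such members, with Acta1 at 1565 CPM. Wild-type replicate 4 was highest for 14 of 23 with Acta1 at 1874 CPM. Knockout replicate 4 was highest for 13 of 22, with Acta1 at 9.69 CPM. A relation of Acta1 to collagen level was not tested. The summed fibroblast markers were 1702 to 2624 CPM in KPC wild type and 2096 to 2789 CPM in knockout, with 0 of 10 called by edgeR, 2 at an unadjusted p under 0.05, and none at 0 counts. Leukocyte markers summed to 1026 to 2346 CPM in wild type and 1795 to 2815 CPM in knockout, with 0 of 6 called and 5 at an unadjusted p under 0.05, and epithelial markers to 4684 to 5828 and 7852 to 9651 CPM, with 4 of 5 higher. The part of these cell types in the KPC results was not tested.

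The knockout effects of the lines were compared directly by the interaction contrast over all 16 libraries. Of 37 members tested, 9 had a higher log2 change in KPC than in ID8 and 0 a lower one (edgeR, adjusted p under 0.05; 0 lower by DESeq2 and 1 by limma-voom), where 21.8% of all 14921 genes were called, 11.6% higher and 10.3% lower; 13 members had an unadjusted p under 0.05, of which Col4a5 and Col4a6 had the lower sign. Among the 37 were Col6a5, Col6a6, Col8a1, Col10a1, Col13a1 and Col23a1, which had 0 counts in every ID8 library. With SEs from 162.8 to 11880, no difference could be estimated or called for them. The smallest adjusted p was that of Col3a1, with a KPC minus ID8 difference of 3.08 ± 0.30 SE in log2 change (adjusted p = 7.69e-06, edgeR). Col18a1 differed by 1.84 ± 0.29 SE, although it was called lower in both lines. The ID8 side of that difference rested on 55 counts in wild type and 10 in knockout. Col5a2 differed by 1.48 ± 0.24, Col1a1 by 1.23 ± 0.23, Col6a2 by 1.07 ± 0.16, Col15a1 by 1.25 ± 0.37 and Col5a1 by 0.83 ± 0.24 (SE). Each of these 7 was called lower in ID8, and Col18a1 alone of them was called in KPC.

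The remaining 2, Col6a3 and Col5a3, had 6 and 33 counts over the ID8 wild-type libraries, were not tested within ID8, and lost the call under 12 of 24 and 13 of 25 alternatives. They entered this fit through their KPC counts, and for Col6a3, at 0 counts in ID8 knockout, the fitted difference has no readable size. Col15a1 lost it without ID8 wild-type replicate 2 or knockout replicate 2 (adjusted p = 0.0821 and 0.0696, edgeR). Col5a1 lost it without wild-type replicate 2 or knockout replicate 1 or 3 of ID8 (adjusted p from 0.0501 to 0.0702). The type IV chains Col4a1 and Col4a2 were not called, with differences of 0.17 ± 0.19 and 0.41 ± 0.21 SE.

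**Figure D4:**
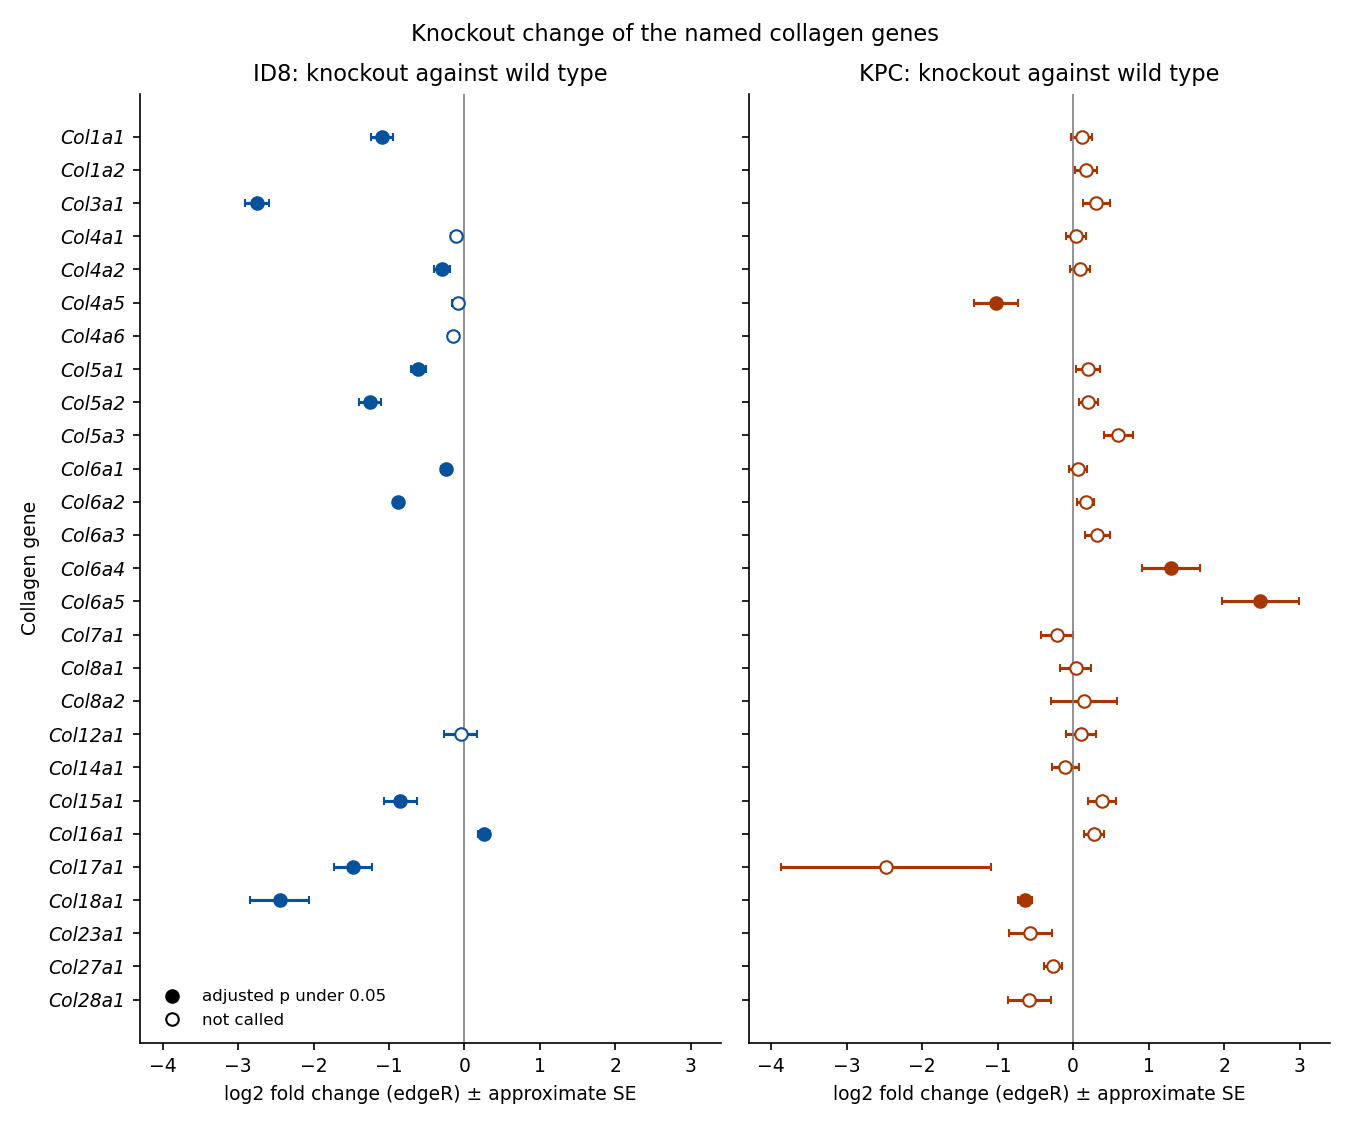
Log2 change of Trp53bp1 knockout against wild type (edgeR, ± approximate SE) for the 27 named collagen genes in ID8 (left) and KPC (right); filled points passed the adjusted threshold and genes without a point were not tested. In ID8 every plotted gene except Col16a1 lies below 0. Of the filled points in KPC, Col18a1 and Col4a5 lie below 0 and Col6a4 and Col6a5 above.

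Chains that assemble together were compared as count ratios within a library, on which gene length and library scaling have no bearing between groups. Col1a1 to Col1a2 was 0.927 ± 0.0168 in KPC wild type and 0.889 ± 0.0388 in KPC knockout (SD, n = 5), between 0.849 and 0.95 in all 10 libraries. In ID8 wild type it ran from 501 to 1854, on 1 to 7 counts of Col1a2. Col4a1 to Col4a2 was 1.77 ± 0.0898 and 2.02 ± 0.126 in ID8 wild type and knockout (n = 3) and 2.00 ± 0.0751 and 1.91 ± 0.0706 in KPC (n = 5). Col6a1 to Col6a2 was 2.51 ± 0.041 in ID8 wild type and 3.89 ± 0.147 in ID8 knockout, without overlap, and 1.30 ± 0.0332 and 1.21 ± 0.0487 in KPC. Col5a1 to Col5a2 was 8.17 ± 0.787 and 13 ± 2.14 in ID8 and 0.786 ± 0.0517 and 0.784 ± 0.0591 in KPC. The ID8 genotypes did not overlap for Col4a1 to Col4a2 or for Col5a1 to Col5a2 either. None of the 16 comparisons of these ratios passed adjustment by the exact two-sided permutation test (lowest adjusted p = 0.0714; 8 had an unadjusted p under 0.05). With 3 libraries against 3 the exact test cannot go below p = 0.1, and with 3 against 5 not below p = 0.0357.

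Genes that process collagen were described from lists of 56 genes. In ID8 knockout, 18 of 45 tested were lower and 11 higher, with a median log2 change of -0.08, where 25.5% of all genes were lower and 25.4% higher. The prolyl 4-hydroxylase subunits P4ha2 and P4ha1 fell, with log2 changes of -1.50 ± 0.07 and -0.69 ± 0.05 SE. P3h3, of the prolyl 3-hydroxylase family, had -0.84 ± 0.09, the collagen uptake receptor Mrc2 -0.73 ± 0.08 and the chaperone Serpinh1 -0.21 ± 0.05 SE, all called lower. Among genes of at least 10 CPM in a group, the largest rises were those of the crosslinking enzymes Loxl3 (0.56 ± 0.08) and Loxl1 (0.29 ± 0.07), the proteoglycan Dcn (0.41 ± 0.05) and the lysyl hydroxylase Plod1 (0.29 ± 0.08 SE). Lox was not called (-0.02 ± 0.04 SE).

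In KPC knockout, 4 of 55 tested genes of these lists were higher and 2 lower, near or under the 6.67% higher and 7.01% lower among all genes. The 4 called higher were P4ha2 (log2 change 0.61 ± 0.17 SE), the procollagen proteinase enhancer Pcolce2 (0.47 ± 0.12), the procollagen proteinase Bmp1 (0.35 ± 0.08) and P4hb, the shared subunit of prolyl 4-hydroxylase (0.26 ± 0.06). P3h4 (-0.54 ± 0.10 SE) and the export factor Klhl12 (-0.33 ± 0.08) were lower. Serpinh1, Lox and P4ha1 were not called in KPC, at 0.08 ± 0.12, 0.37 ± 0.24 and 0.43 ± 0.21 SE. P4ha2 was thus called lower in ID8 and higher in KPC.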

How the data were processed

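RNA of 16 mouse samples was sequenced; the labels give each sample's group and replicate number. The submitters' processing notes name HISAT, RSEM 1.2.8 and the mouse build GRCm39 (mm39). The values the authors deposited are expected counts for each gene, which were rounded to whole numbers. Genes absent from 1 of the 4 tables were set to 0 there. Members and gene lists were chosen with earlier results of these data known.

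All fits were made in R 4.3.3 with limma 3.58.1 and edgeR 4.0.16, using TMM, filterByExpr, the robust quasi-likelihood test and Benjamini-Hochberg adjustment over every gene tested, at 0.05. Each comparison was fitted on its own groups, and the interaction on all 16 libraries. SEs are approximate, from the log2 change and the root of its F statistic. Levels are CPM scaled by TMM over all libraries, and shares of counts use library totals. Lengths are of the longest coding transcript in GENCODE M21, which is on another build. Folds against 0 counts use a floor of 3 counts per library, and intervals and floors cover counting error only. Chain ratios add 0.5 to each count. The scripts were tested on simulated data.

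Named are members of at least 10 CPM in a group or called in a knockout comparison, and of the processing genes up to 4 called per direction with at least 10 CPM, besides Serpinh1, Lox and P4ha1. Col4a3, Col4a4, Col6a6, Col9a3, Col11a2, Col20a1 and Col24a1 were named after their values were seen. Alternatives were median-of-ratios scaling, library totals, DESeq2 1.42.0, limma-voom, other filters, a replicate block, a joint fit, a 2-fold threshold, genes listed in every table, and leaving out each library or those with Acta1 above 1000 CPM.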

Additional observations from a re-analysis of the deposited data

Results flagged for a closer look

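The 27 named members were screened in the KPC wild-type and KPC knockout groups, 54 sets of 5 libraries. In 6 sets 1 library was set apart from the others of its group by Dixon's criterion, which chance alone gives in about 1 of 20 such sets. The ID8 groups, with 3 libraries each, were too small and were not screened. Col17a1 was at 36.7 CPM in KPC wild-type replicate 3, where the other 4 lay between 0.455 and 4.75 CPM, and at 5.07 CPM in KPC knockout replicate 1, where the others lay between 0.205 and 1.6 CPM. KPC knockout replicate 4 stood above the rest of its group for 3 members. Col4a1 was at 1127 CPM there (others 779 to 852), Col4a2 at 566 CPM (others 404 to 448) and Col6a5 at 56.3 CPM (others 12.3 to 21.4). Col6a4 was at 3.22 CPM in KPC wild-type replicate 4, where the others lay between 0.911 and 1.45 CPM.

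The knockout change differed between the lines for 9 members by the interaction test, 7 of them also tested within ID8, with KPC minus ID8 differences in log2 change of 3.08 for Col3a1, 1.84 for Col18a1, 1.48 for Col5a2, 1.23 for Col1a1, 1.25 for Col15a1, 1.07 for Col6a2 and 0.83 for Col5a1. The fitted differences of the other 2 were 4.46 for Col6a3 and 1.77 for Col5a3. They rest on 6 and 33 counts in ID8 wild type and 0 and 15 in ID8 knockout. No size can be read from that of Col6a3. The ID8 side of the Col18a1 difference rests on 55 counts in wild type and 10 in knockout.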

How the results depend on the processing

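Of 2374 alternative values for 122 single-gene results, 2284 kept their side of the threshold, 72 lost the call, 18 gained it and 0 reversed a call. Some values that were not called under any setting did change sign. An example was Col12a1 in ID8 knockout, with log2 changes from -0.28 to 0.18. The counts of members called in both line comparisons stayed within 1.5 times under every alternative. In ID8 knockout, the fit of all 4 groups together called 6 lower and 0 higher, in place of 10 and 1, and it called 2681 of all genes in place of 6067; with a 2-fold threshold 5 were lower and 0 higher. Leaving out 1 ID8 library gave 9 to 14 lower and 0 to 1 higher. In KPC knockout, library totals gave 1 higher, no filter 1 higher and 1 lower, and the 2-fold threshold 1 lower. Removal of the 4 Acta1-rich libraries gave 4 higher and 2 lower. Leaving out 1 KPC library gave 1 to 3 higher and 1 to 2 lower, and 934 to 3106 of all genes. DESeq2 called 3162 of all genes there, limma-voom 3134 and the joint fit 3524, in place of 1953. For the interaction, limma-voom called 1 member lower and 4899 of all genes in place of 3259, removal of the Acta1-rich libraries 2 lower, and leaving out 1 library 5 to 10 higher (5 without ID8 wild-type replicate 2) and 0 to 2 lower. The cause was not tested. Library totals moved the median of all genes by 0.15 in the wild-type line comparison and by -0.11 in the interaction. The summed level without Col1a1, Col1a2 and Col3a1 was 2238 CPM in ID8 wild type, 8068 in KPC wild type and 8442 in KPC knockout. The labels share replicate numbers between genotypes, but the numbers did not pair the samples: deviations of same-numbered libraries correlated at -0.113, 0.175 and -0.0605 in ID8 and at -0.158, 0.589, 0.204, 0.318 and -0.549 in KPC, and not every library correlated best with its own number. With a replicate block, 10 members were lower and 1 higher in ID8, 1 lower and 3 higher in KPC, and 8 higher in the interaction. Depth limits members near 3 counts, about 0.16 CPM.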
